A study of Ovis aries with 14 samples.

Results

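Among the genes measured in the lungs of lambs (Ovis aries), 99 of 27054 met a rule for lowering that also set limits on level and size. Each was lower in every lung of preterm lambs that had received respiratory support and in every term lung than in any fetal lung. The 99 genes were chosen from the deposited counts per gene, expressed as CPM, the count of a gene divided by the library total and multiplied by 1000000. A gene was taken if its mean over the 14 libraries was from 2 to under 1000 CPM, if all 8 libraries of supported and term lungs lay below all 6 fetal libraries, and if the mean of those 8 was at most 0.7 times the mean of the 6. Since these values chose the genes, the difference between the 8 and the 6 libraries is described here and not tested. Comparisons within the 8 and within the 6 libraries were tested.

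RNA came from the right lower lobe, and every library is labelled with a different animal. Lambs with invasive mechanical ventilation (IMV, n = 3) and lambs with noninvasive respiratory support (NRS, n = 3) were preterm and had been supported for 3 days, IMV through intubation and NRS through a mask and an electronic blower. Both supported groups are labelled gd134. Untreated lungs were taken from lambs of the term group (labelled gd150, n = 2), from the fetal end group (labelled gd135, gd134 and gd136, n = 3) and from the fetal start group (labelled gd127, gd128 and gd131, n = 3). The labels do not say whether term lambs had been born or had breathed air. No genotype or other agent is given for any group. The libraries held between 23267448 counts (NRS replicate 2) and 31586235 counts (IMV replicate 2).

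In late gestation the fetal lung is filled with liquid that it secretes, its airspace walls thin out and its epithelium begins to make surfactant. At birth the liquid is cleared and the lung turns from a secreting to a gas-exchanging organ, so the same tissue is compared before and after the start of air breathing when fetal lungs are set against supported lungs of preterm lambs. Preterm lambs on respiratory support are used as a model of the lung disease that follows preterm birth, in which growth of the airspaces is impaired. The deposited table gives Ensembl gene identifiers (ENSOARG numbers), which are not paired with gene names or positions in the sources used here, so the genes below are given by identifier, without a role. For the same reason the lobe label could not be checked against markers of lung cells, and no sequence is shown.

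Of the 27054 genes, 13364 had a mean in the window from 2 to under 1000 CPM. In 240 of these (1.8%) the 8 supported and term libraries lay below the 6 fetal ones, and in 784 the ratio of the means was at most 0.7. Both conditions held in 99 genes, 0.741% of those in the window. The mirror image of the rule, with the 8 libraries above the 6 and the fetal mean at most 0.7 times that of the other 8, held in 244 genes. The edges of the rule were close to genes on the other side. The member with the highest ratio stood at 0.696, and the nearest separated gene left out stood at 0.702. The narrowest separation was 3.4337 CPM in the highest of the 8 against 3.43465 CPM in the lowest fetal library, and the gene left out by the smallest overlap had 2.24162 CPM in the highest of the 8 against 2.24156 CPM in its lowest fetal library. The member with the lowest mean had 2.001 CPM, and 14 genes under 2 CPM met the other conditions, the highest of them at 1.92 CPM. At the upper end 1 gene, with a mean of 1758 CPM and a ratio of 0.672, met them.

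The lowering was moderate in most of the 99 genes. The median ratio of the supported and term mean to the fetal mean was 0.601, with quartiles of 0.508 and 0.661. In 50 genes the ratio was over 0.6, in 25 it was over 0.5 and up to 0.6, in 22 over 0.25 and up to 0.5, and in 2 it was 0.25 or less. Separation between the 2 sides was narrow as well: in the median gene the lowest fetal library was 1.097 times the highest of the 8. In 47 genes that factor was over 1.1 and in 12 it was over 1.25. The genes had a median mean of 16.7 CPM, against 27.0 CPM for all genes in the window. Their levels spread over the window, with 34 genes under 10 CPM, 52 from 10 to under 100 CPM and 13 at 100 CPM or more. Fewer cells that carry a transcript and less of it per cell cannot be told apart in RNA from whole tissue.

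**Figure D1:**
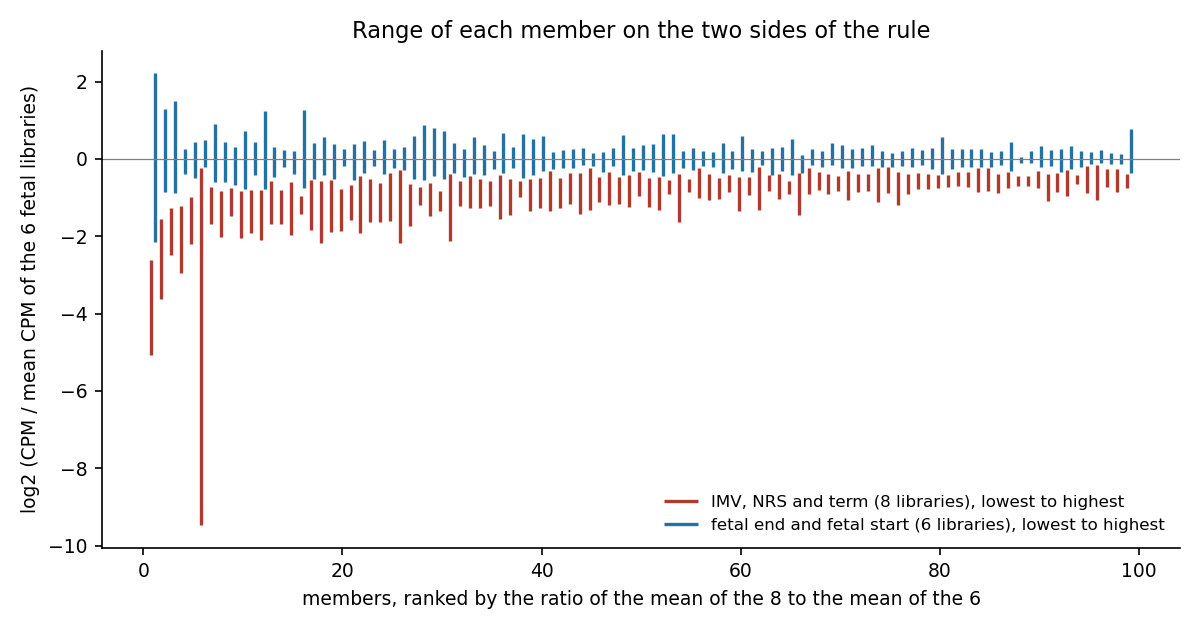
Each of the 99 genes is drawn by rank of its ratio, with a red line from the lowest to the highest of the 8 IMV, NRS and term libraries and a blue line from the lowest to the highest of the 6 fetal libraries, as log2 of CPM over the mean of the 6 fetal libraries. The gaps between red and blue lines are short, with a median factor of 1.097, and 1 gene, ENSOARG00000008077, has a red line that reaches down to 0.0340 CPM.

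In each library the 99 genes can be put on a common scale by dividing the CPM of a gene by its mean over the 6 fetal libraries. On this scale the median gene stood at 0.564, 0.603 and 0.624 in the IMV lungs, at 0.609, 0.640 and 0.625 in the NRS lungs and at 0.574 and 0.552 in the term lungs. In the fetal end lungs it stood at 0.913, 0.943 and 0.986, and in the fetal start lungs at 0.948, 1.163 and 0.918. The 8 supported and term libraries thus differed little from each other in this median, and fetal start replicate 2 stood above the other fetal libraries. That library held the highest fetal value in 49 of the 99 genes, where each of the other 5 fetal libraries held it in 8 to 11. How often fetal start replicate 2 held it over all genes in the window was not counted. Without that library the rule gave 100 genes, 83 of the 99 among them.

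The lowest fetal value, which sets the gap together with the highest of the 8, was most often that of fetal end replicate 1 (26 genes) or fetal start replicate 3 (25 genes). Fetal start replicate 3 is the oldest of its group by label. Among the 8, the highest value was that of an NRS library in 47 genes, of an IMV library in 43 and of a term library in 9. The lowest value was that of a term library in 44 genes, although only 2 of the 8 libraries are term, of an IMV library in 37 and of an NRS library in 18. The same counts were not made over all genes in the window, so they are not shown to be particular to the 99. On library totals the IMV mean was below the NRS mean in 57.6% of all genes in the window.

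**Figure D2:**
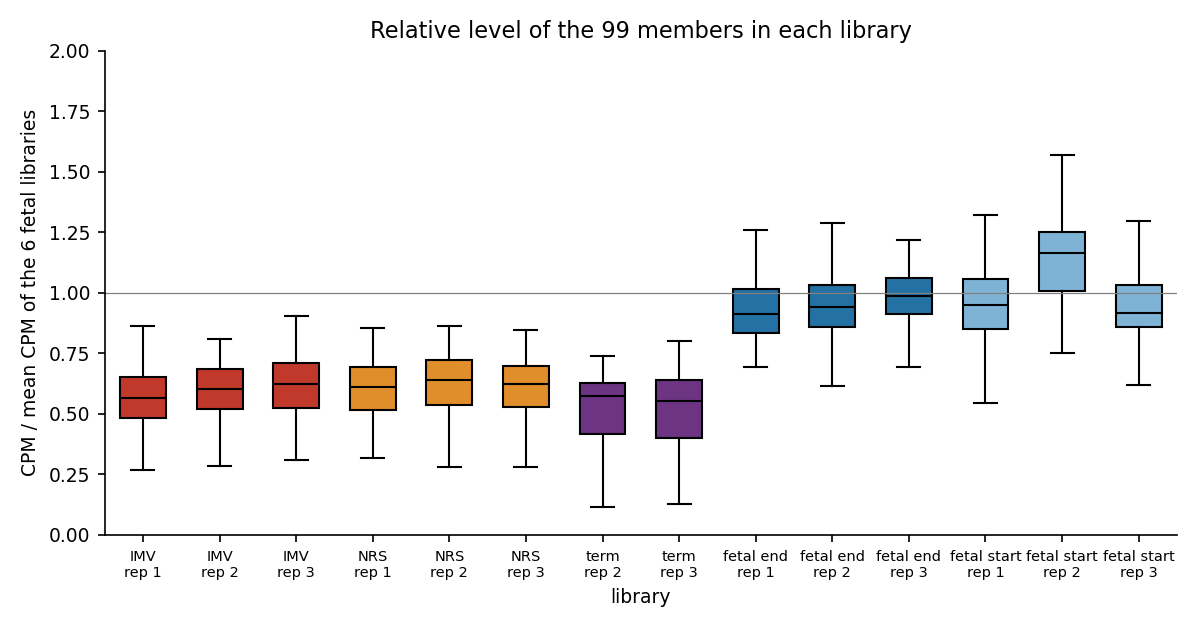
Boxes show the 99 genes in each of the 14 libraries as CPM over the gene's mean in the 6 fetal libraries, with the median as a line, quartiles as the box and whiskers reaching up to 1.5 times the interquartile range; values beyond the whiskers are not drawn. Medians run from 0.552 to 0.640 in IMV, NRS and term lungs and from 0.913 to 1.163 in fetal lungs, with fetal start replicate 2 the highest.

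Animal identifiers end in 17 for IMV replicates 1 and 2 and fetal start replicate 1, in 19 for the 3 fetal end lambs and in 18 for the others. What the suffix stands for is not said. Among libraries with suffix 17 the median ratio of the 99 genes was 0.608 (2 IMV libraries against 1 fetal start library), and with suffix 18 it was 0.559 (6 supported and term libraries against 2 fetal start libraries). The rule placed these libraries below the fetal ones, so a ratio below 1 within each suffix was fixed by the choice of genes and does not test the suffix. The fetal end group cannot be told apart from its suffix.

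ENSOARG00000015746 had the lowest ratio, 0.0739. It had 0.143, 0.760 and 0.251 CPM in the IMV lungs, 0.323, 0.301 and 0.309 CPM in the NRS lungs and 0.543 and 0.140 CPM in the term lungs, against 21.7, 1.56 and 1.21 CPM in the fetal end lungs and 1.23, 1.06 and 1.32 CPM in the fetal start lungs. Fetal end replicate 1 stood far above the other 5 fetal libraries, which lay close together. Without it the ratio was 0.271, and the gene was then too low for the CPM window. Counts were small outside that library, with 4 to 24 per library in the supported and term lungs against 30 to 42 in the other fetal lungs.

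ENSOARG00000012952, the other gene with a ratio under 0.25, stood at 0.185. Its levels were 0.750, 0.348 and 0.466 CPM in the IMV lungs, 0.610, 1.25 and 0.656 CPM in the NRS lungs and 1.46 and 0.806 CPM in the term lungs, against 2.36, 4.02 and 3.26 CPM in the fetal end lungs and 3.11, 10.5 and 2.52 CPM in the fetal start lungs. Fetal start replicate 2 was the highest by far, and without it the ratio was 0.259 and the mean fell short of the CPM window. Besides ENSOARG00000015746, a single library moved the ratio by over 1.5 times in 1 gene, ENSOARG00000022974, chosen here after its values were seen. Its ratio was 0.454 without fetal start replicate 2 and 0.286 with all libraries. Its mean also fell short of the CPM window without that library. In the other 97 genes, ENSOARG00000012952 among them, no single library moved the ratio that far. In 21 of the 99 the ratio passed 0.7 when 1 library was left out.

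The most abundant of the 99 genes was ENSOARG00000026131, with a mean of 685 CPM. It had 484, 592 and 409 CPM in the IMV lungs, 475, 597 and 603 CPM in the NRS lungs and 449.6 and 286 CPM in the term lungs, against 660.15, 842 and 783 CPM in the fetal end lungs and 1066, 1421 and 925 CPM in the fetal start lungs. Its ratio was 0.513. The group means were ordered from term through IMV, NRS and fetal end up to fetal start, and the 3 fetal start libraries lay above the 3 fetal end libraries.

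In 4 genes, named here after their values were seen, the lowest fetal library was over 1.5 times the highest of the 8. ENSOARG00000025904 had the widest gap, 1.75 times. It stood at 16.4, 13.99 and 21.2 CPM in the IMV lungs, 19.7, 14.9 and 18.2 CPM in the NRS lungs and 11.1 and 6.31 CPM in the term lungs, against 56.6, 46.9 and 42.3 CPM in the fetal end lungs and 37.1, 58.2 and 53.1 CPM in the fetal start lungs. Both supported groups overlapped each other, both term libraries lay below all 6 supported ones, and the 2 fetal groups overlapped. The others were ENSOARG00000012952 (1.62 times), ENSOARG00000015902 (1.52 times) and ENSOARG00000010807 (1.51 times). ENSOARG00000015902 averaged 41.0 ± 3.34 CPM in IMV lungs, 35.7 ± 6.38 CPM in NRS lungs and 24.9 ± 0.97 CPM in term lungs, against 78.6 ± 11.4 CPM in fetal end lungs and 77.1 ± 1.42 CPM in fetal start lungs (SD, n = 3 each, term n = 2). ENSOARG00000010807 averaged 2.98 ± 1.01 CPM in IMV lungs, 3.43 ± 0.70 CPM in NRS lungs and 2.93 ± 0.28 CPM in term lungs, against 6.18 ± 0.33 CPM in fetal end lungs and 7.01 ± 0.78 CPM in fetal start lungs (SD, n = 3 each, term n = 2).

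ENSOARG00000008077 met the rule in a different way and is also named after its values were seen. It had 1, 503 and 1 counts in the IMV libraries, 455, 356 and 530 in the NRS libraries and 1 and 2 in the term libraries, against 549, 904 and 600 in the fetal end libraries and 579, 679 and 555 in the fetal start libraries. It was nearly absent from 4 of the 8 supported and term lungs and at 15.3 to 20.4 CPM in the other 4, which is close to the lowest fetal library at 20.9 CPM. Its ratio of 0.353 averages over these.

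**Figure D3:**
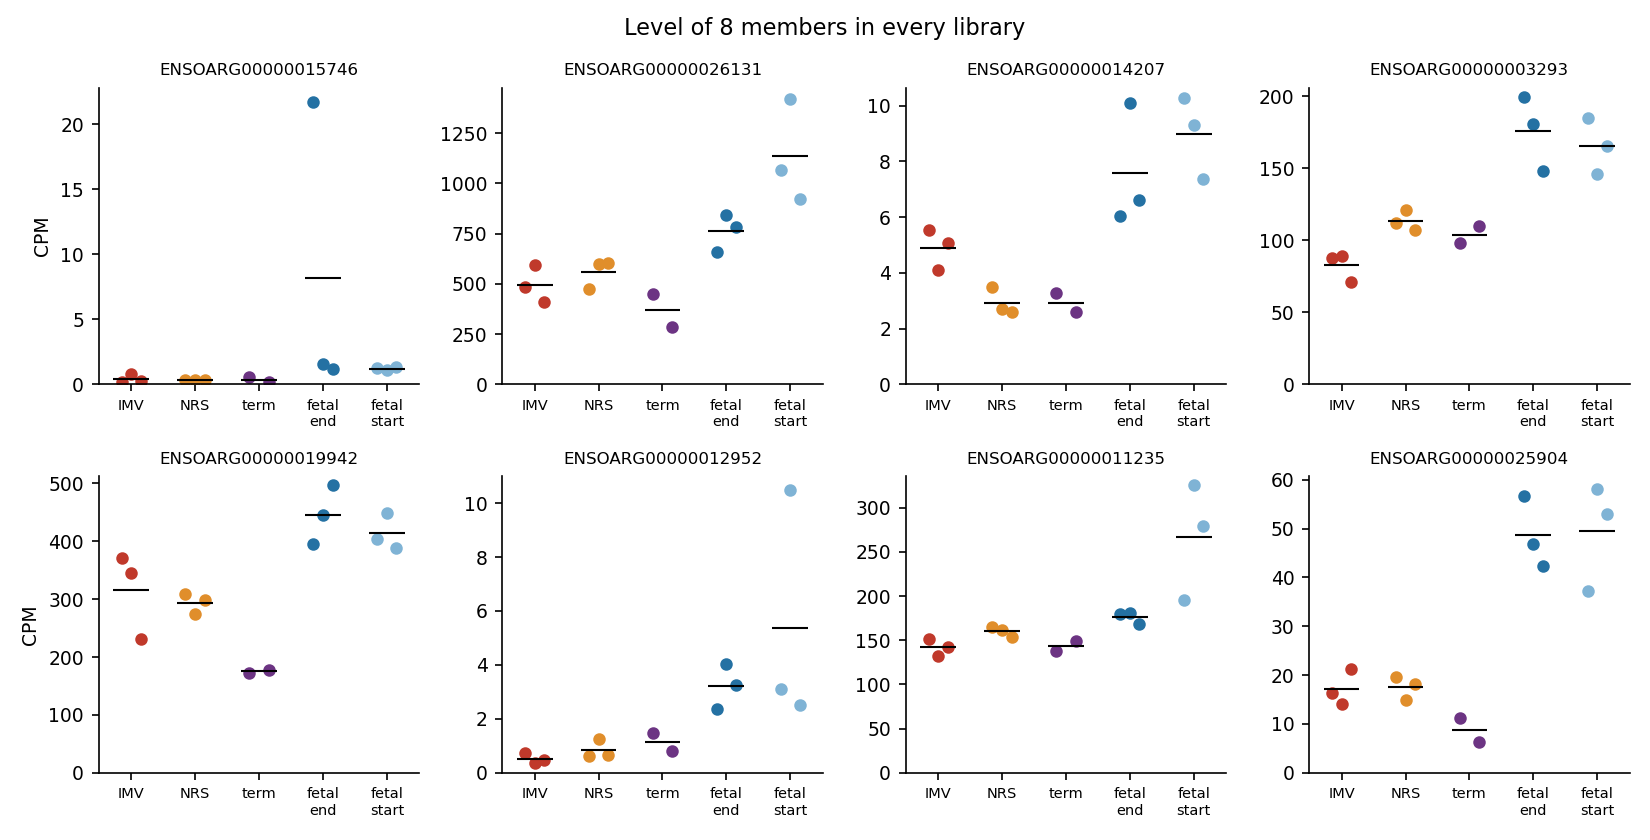
Points are single libraries in CPM on a linear axis from 0 for 8 of the genes, and horizontal lines are group means, with IMV, NRS and term lungs left of the fetal groups. The fetal end mean of ENSOARG00000015746 rests on 1 library at 21.7 CPM, and ENSOARG00000025904 shows the widest gap between the 8 and the 6 libraries.

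The first comparison on which the rule places no direction is IMV against NRS, the question of whether the 2 kinds of support left these genes at different levels. By edgeR's quasi-likelihood test 0 of the 99 genes passed an adjusted p under 0.05 (two-sided, Benjamini-Hochberg over 17069 genes), and over all genes tested 0% were called in either direction. DESeq2 also called 0 of them, where it called 0.528% of its tested genes as higher and 0.326% as lower. At an unadjusted edgeR p under 0.05, 2 genes were higher and 2 lower after IMV, where 6% and 4.86% of all genes tested were. The median log2 fold change of the 99 genes, IMV minus NRS, was 0.01 with quartiles of -0.13 and 0.12, beside quartiles over all genes tested of -0.18 and 0.19.

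The split by direction depended on the scaling. With edgeR's TMM scaling the fold change was positive for 51 of the 99 genes and negative for 48, whereas in CPM on library totals 42 had the higher mean after IMV and 57 the lower. All genes in the window moved alike, with 51.2% higher after IMV on the TMM scale and 42.4% on library totals. In CPM the IMV libraries lay above the NRS libraries in 5 of the 99 genes (background 6.95%) and below them in 7 (background 14.9%).

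ENSOARG00000014207 had the smallest p of the genes that were higher after IMV, at 5.53, 4.12 and 5.06 CPM in IMV lungs and 3.48, 2.71 and 2.58 CPM in NRS lungs. The groups did not overlap, and the term lungs, at 3.26 and 2.59 CPM, lay within the range of the NRS lungs. Its log2 fold change was 0.79 ± 0.24 (SE) and it did not pass the edgeR test (adjusted p = 0.36, and from 0.103 to 0.871 over the alternatives). ENSOARG00000003293 had the smallest p in the other direction, at 87.8, 89.2 and 71.0 CPM in IMV lungs and 112, 121 and 107 CPM in NRS lungs. Again the groups did not overlap, and the term lungs at 97.9 and 110.005 CPM lay above the IMV lungs, 1 of them within the range of the NRS lungs. Its log2 fold change was -0.41 ± 0.12 (SE), and it did not pass either (edgeR adjusted p = 0.36, and from 0.115 to 0.686 over the alternatives). Without IMV replicate 2, the 1 IMV library with more than 1 count of it, ENSOARG00000008077 was called lower after IMV (edgeR adjusted p = 3.06e-06), and it was the 1 call among the 99 genes in any of the alternatives for IMV against NRS.

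Supported lungs, as the mean of IMV and NRS, were next set against term lungs, which asks whether the genes stood as low after 3 days of support as they do at term. By edgeR's quasi-likelihood test 0 of the 99 genes passed the adjusted threshold, and 0% of all 17069 genes tested did. DESeq2 called 7 of the 99, all higher in supported lungs, where it called 2.06% of its tested genes as higher and 1.72% as lower. At an unadjusted edgeR p under 0.05, 16 genes (16.2%) were higher in supported lungs and 0 were lower, where 7.09% and 7.78% of all genes tested were. The median log2 fold change, supported minus term, was 0.11 with quartiles of -0.01 and 0.32, beside a median of 0.00 with quartiles of -0.19 and 0.25 for all genes tested.

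A positive fold change was fitted for 72 of the 99 genes and a negative one for 27, whereas it was positive for 49.4% of all genes tested. The number of positive ones was 65 to 74 when a library was left out. In CPM on library totals the supported mean was above the term mean in 76 genes (76.8%), where it was in 50.8% of all genes in the window. All 6 supported libraries lay above both term libraries in 14 of the 99 genes (background 8.41%) and below them in 0 (background 7.09%). The ratio limit pools supported and term libraries. Relative to the fetal mean, the supported mean reached 0.729 and the term mean 0.731. Genes over 0.7 in either passed through low values in the other. The counts of genes higher or lower in supported lungs are therefore not independent of the choice of genes. On the scale from the fetal mean at 0% to the term mean at 100%, the supported mean had covered a median of 86.0% (quartiles 76.0% and 99.1%). These shares are a description, since they use the means that chose the genes and the limit on the ratio keeps most of them high. The lowest was 49.1% and the highest 138%, the last being a gene that stood lower in supported than in term lungs.

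ENSOARG00000019942 had the smallest p of these genes and also the smallest share. It stood at 371, 346 and 231 CPM in the IMV lungs and 309, 274 and 299 CPM in the NRS lungs, against 173 and 178 CPM in the term lungs. All 6 supported libraries were above both term libraries and below the fetal libraries, the lowest of which held 388 CPM. The supported mean of 305 CPM was over 0.7 times the fetal mean of 429.8 CPM. Low term values thus let the gene meet the ratio limit. The difference between supported and term lungs is therefore a description, drawn from values that chose the gene. Its log2 fold change was 0.78 ± 0.17 (SE), which did not pass the edgeR test (adjusted p = 0.15, and from 0.0929 to 0.358 with single libraries left out) and passed DESeq2 (adjusted p = 0.00255). ENSOARG00000025904, the gene with the widest gap, was also among the 7 called by DESeq2, with a log2 fold change of 0.97 ± 0.25 (SE, DESeq2 adjusted p = 0.011). So was ENSOARG00000015902, at 0.60 ± 0.16 (SE, DESeq2 adjusted p = 0.00989). ENSOARG00000008077 was the gene with the smallest DESeq2 adjusted p, 0.00191, with its uneven presence among the IMV lungs given above.

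ENSOARG00000012952 had the smallest p of the genes lower in supported lungs, with means of 0.680 ± 0.312 CPM in supported lungs (SD, n = 6) and 1.13 ± 0.463 CPM in term lungs (SD, n = 2). The groups overlapped, and the log2 fold change of -0.81 ± 0.55 (SE) did not pass (edgeR adjusted p = 0.503, and from 0.413 to 0.918 over the alternatives). The group of 2 term lambs limits this comparison.

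Fetal end against fetal start covers the step in age in utero and asks whether the 99 genes changed over that step in unsupported lungs. By edgeR's quasi-likelihood test 0 of the 99 genes passed, where 0.00586% of all genes tested passed as higher and 0% as lower. DESeq2 called 1 of them, as lower, where it called 0.228% of its tested genes as lower and 0.504% as higher. At an unadjusted edgeR p under 0.05, 9 genes (9.09%) were lower at fetal end and 2 were higher, where 3.13% and 4.6% of all genes tested were. The median log2 fold change, fetal end minus fetal start, was -0.11 with quartiles of -0.29 and 0.02, beside a median of 0.00 and quartiles of -0.14 and 0.20 for all genes tested. In CPM the fetal end libraries lay below the fetal start libraries in 10 of the 99 genes (background 4.69%) and above them in 3 (background 5.97%).

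These differences leaned on fetal start replicate 2. That library also took part in choosing the genes, since 83 of the 99 met the rule without it. The share of genes lower at fetal end is therefore not independent of that choice. A negative fold change was fitted for 71 of the 99 genes with all libraries, and for 48 without fetal start replicate 2, when 51 were positive. Genes at an unadjusted edgeR p under 0.05 in the lower direction numbered 4 without that library and 4 without fetal end replicate 1, against 19 without fetal start replicate 3, the oldest of its group. All 3 fetal end animals have an identifier suffix that no fetal start animal has, so age and suffix cannot be told apart.

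ENSOARG00000011235 had the smallest p and was the gene DESeq2 called. Its ratio was 0.742 without fetal start replicate 2 and 0.709 without fetal start replicate 3, both over the limit of 0.7. The fold change and p-values of this gene are therefore a description, drawn from values that chose it. The gene stood at 179.6, 180.7 and 169 CPM in the fetal end lungs, against 196, 326 and 279 CPM in the fetal start lungs. The groups did not overlap, and fetal start varied far more than fetal end. Its log2 fold change was -0.63 ± 0.15 (SE). It did not pass in edgeR (adjusted p = 0.373, and from 0.0302 to 0.928 over the alternatives), passed without fetal start replicate 1 (edgeR adjusted p = 0.0313) and passed in DESeq2 (adjusted p = 0.0302). In the supported and term lungs it was nearly level, at 142 ± 9.98 CPM with IMV (SD, n = 3), 160 ± 6.21 CPM with NRS (SD, n = 3) and 143 ± 7.65 CPM at term (SD, n = 2).

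In the direction of higher at fetal end the smallest p was that of ENSOARG00000015746, whose mean of 8.17 ± 11.8 CPM at fetal end against 1.20 ± 0.13 CPM at fetal start (SD, n = 3 each) rests on 1 library. That library also brought the gene into the CPM window. The gene's fold change is therefore a description, drawn from a value that chose the gene. With all libraries the log2 fold change reached 2.73 ± 0.96 (SE, edgeR adjusted p = 0.538), and it was 0.18 without fetal end replicate 1 (edgeR adjusted p = 0.998). ENSOARG00000026131, the most abundant of the 99, had a log2 fold change of -0.61 ± 0.22 (SE), which did not pass (edgeR adjusted p = 0.55, and from 0.255 to 0.998 over the alternatives), although its groups did not overlap.

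**Figure D4:**
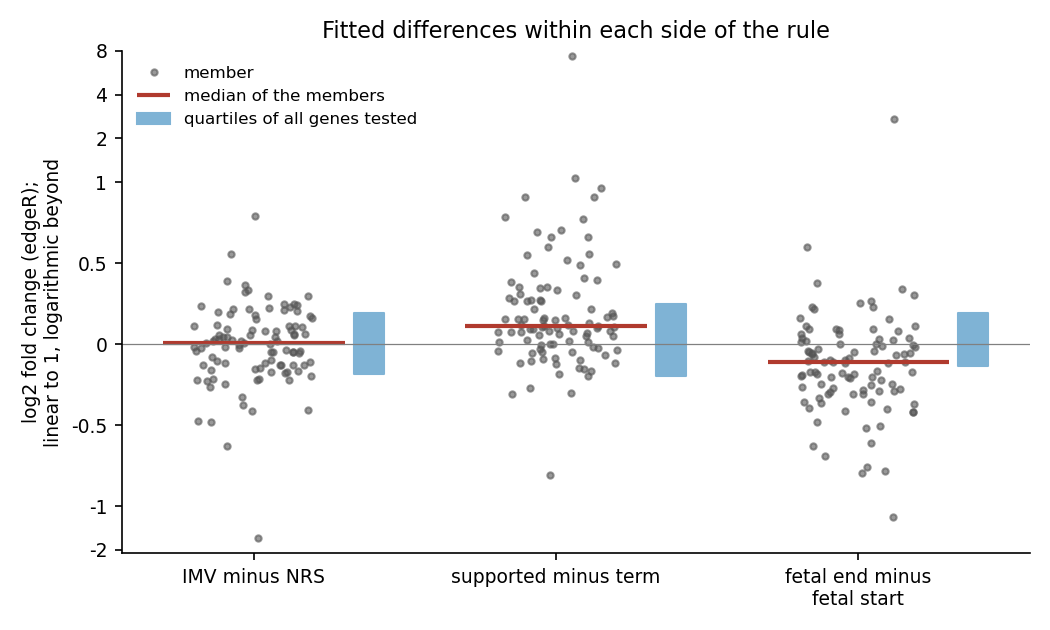
Points are log2 fold changes from edgeR for the 99 genes in IMV minus NRS, supported minus term and fetal end minus fetal start, red lines their medians (0.01, 0.11 and -0.11) and blue bars the quartiles over all 17069 genes tested; the axis is linear to 1 and logarithmic beyond. The cloud is centred near 0 for IMV minus NRS, lies mostly above 0 for supported minus term and mostly below 0 for fetal end minus fetal start, where 48 of 99 are negative without fetal start replicate 2; ENSOARG00000008077 is the highest point of the middle column.

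Taking the orders of the means on library totals together, 50 of the 99 genes had their highest mean at fetal start, a lower one at fetal end, a lower one again in supported lungs and the lowest at term. The steps between fetal and other lungs in this order are fixed by the rule, and the step between the fetal groups leans on fetal start replicate 2, as given above. Of the steps whose direction the rule does not fix, fetal end was below fetal start in 67 of the 99 genes (46.3% of all genes in the window). Supported was above term in 76 (50.8% of all genes in the window). How many genes in the window met both was not counted, so the joint order adds no result beyond these. The ratio limit pools the groups on each side, so neither step is independent of the choice of genes. The spread within groups was above that of all genes in the window in IMV, NRS and fetal start lungs and below it in fetal end lungs. The median SD of log2(CPM + 0.1) was 0.218 in IMV lungs and 0.176 in NRS lungs, beside 0.162 and 0.167 for all genes in the window. It was 0.163 in fetal end lungs and 0.225 in fetal start lungs, beside 0.170 and 0.201 for all genes in the window. These spreads were not matched for level, where the 99 genes had a median mean of 16.7 CPM against 27.0 CPM. The differences in spread were not tested.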

How the data were processed

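Total RNA libraries were made with a stranded kit, per the labels' protocols. Raw counts per Ensembl gene identifier were deposited in 1 table. No column holds estimated counts: all 14 deposited columns are whole numbers. The build Oar_v3.1 and, without their roles, featureCounts 1.6.3, STAR 2.7.0f, DESeq2 1.22.2, Subread, cutadapt 1.16 and bcl2fastq are named in the submitters' processing notes. How strand and multi-mapping reads were handled is not given in the sources used here, nor is the annotation release, so counts of overlapping, antisense or near-identical genes are uncertain. The RefSeq gene table at hand matched 0 of the identifiers, so gene lists planned as symbols were not used.

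Groups came from the sample titles. Members, lists and tests were chosen with earlier results of these data known. CPM on library totals was used for the rule and all levels. edgeR 4.0.16 (R 4.3.3) fitted the counts of all 14 libraries with 5 group means (9 residual degrees of freedom), TMM scaling (factors 0.963 to 1.05) and filterByExpr with its count minimum of 10. The filter kept 17069 genes, all 99 members among them. P-values are two-sided with Benjamini-Hochberg adjustment over these genes, and the SE is the log2 fold change over the square root of F. Replicates differed beyond sampling noise (chi-square per degree of freedom 26.6 to 83.9).

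Without gene names the rule for named genes took the member with the lowest ratio, the one with the highest mean CPM and, in each tested comparison, the one with the smallest p in each direction. Others are said to be chosen after their values were seen. Alternatives tried were RLE scaling, DESeq2 1.42.0, testing without the filter, fitting the compared groups alone, the replicate number as a block, leaving out each library and other scalings and limits of the rule. The identifier suffix as a covariate and either fetal group alone in the rule were chosen after seeing the data.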

Additional observations from a re-analysis of the deposited data

How the results depend on the processing

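The rule gave 99 genes on library totals, 109 with TMM-scaled CPM and 110 with DESeq2 size factors, 94 of them shared in each case. It gave 24 with a ratio of at most 0.5 and 100 to 138 with 1 library left out. With fetal end alone as the fetal side it gave 204, 76 of the 99 among them. With fetal start alone it gave 256, 95 of the 99 among them. Fewer fetal libraries make the separation easier to meet. DESeq2 called 7 of the 99 for supported against term and 1 for fetal end against fetal start, where edgeR called 0; the cause was not tested. With 1 library left out, edgeR called 0 to 1 of the 99 for IMV against NRS (1 without IMV replicate 2), 0 to 1 for fetal end against fetal start (1 without fetal start replicate 1) and 0 for supported against term. At an unadjusted p under 0.05, 1 to 3 were higher for IMV against NRS with 1 library left out and 4 to 19 were lower for fetal end against fetal start.

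With the replicate number as a block 0 of the 99 were called in any comparison, and 1 rather than 2 was higher after IMV at an unadjusted p under 0.05. Same-numbered libraries of IMV and NRS deviated from their group means with correlations of -0.152 to -0.002, those of the fetal groups with -0.102 to -0.0685, IMV and term with -0.0786 and 0.0122, and NRS and term with 0.201 and 0.104. Both NRS and term pairs exceeded 0.1, but supported against term also includes the IMV pairs. In none of the tested comparisons did every pair exceed 0.1, and nothing in the labels ties the numbers together. RLE scaling, no filter, a fit of the compared groups alone and the suffix covariate also called 0 of the 99 in each comparison. With 1 term library left, its spread is taken to be that of the other groups. In 2 of the 99 genes a library had 10 or fewer counts. These were ENSOARG00000015746 and ENSOARG00000008077, the second nearly absent from some libraries and well counted in others. Low counts also limit precision in genes above that cutoff, such as ENSOARG00000012952, with 11 to 43 counts per supported or term library.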
